A study of Mus musculus with 8 samples.

Results

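The genes described here run the cell cycle and copy DNA: 40 genes for cyclins and their kinase, the replicative helicase, nucleotide supply, the mitotic spindle and chromosome structure. The set was named gene by gene, and a probe belongs to it when the array annotation gives it one of these names. All 40 had probes on the array, 70 in all, and a gene with several probes was read from the one with the highest mean level. Of the 40, 36 could be measured, out of 22368 genes measured on the arrays, and 34 of them lay well above background on all 8 arrays. No probe passed for Ccne2, which encodes the second E-type cyclin, for the spindle checkpoint kinases Bub1 and Bub1b, or for Kif11, the motor that pushes spindle poles apart. The probes for Ccne2, Bub1 and Bub1b lay above background on 0 arrays and that for Kif11 on 1, so no value is given for these 4 genes.

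A resting cell re-enters the cycle when D-type and E-type cyclins activate their kinases, the retinoblastoma proteins are phosphorylated, and E2F transcription factors switch on the genes for DNA replication. Genes for mitosis come on later, in G2, through the FOXM1 and MYBL2-MuvB complexes, and are held off in resting cells by the DREAM complex, which binds E2F and CHR promoter elements. Adult kidney epithelium divides rarely. Its tubule cells can re-enter the cycle after injury or under metabolic load, while podocytes seldom complete a division.

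RNA was read from whole kidney of 8 male mice aged 20 weeks, 2 in each of 4 groups, on 1-colour Agilent mouse arrays. The db/db mice are homozygous for the Leprdb mutation of the leptin receptor, which makes them obese and diabetic from a young age, and all mice share the C57BLKS/J Iar background. Of the db/db mice, 2 were given polyethylenimine nanoparticles (PEI-NPs) with a mimic of miRNA-181b-5p, 2 were given the same type of particle with a control miRNA, and 2 were untreated. The 2 normal mice are m/m. The labels do not state the dose, the route or the schedule of the particles. The mature miR-181b-5p in RefSeq (GRCm38.p6, chr1:137966650-137966673, plus strand), shown because it is the miRNA the particles were built around, reads as follows, with the seed, bases 2 to 8, in capitals.
mmu-miR-181b-5p: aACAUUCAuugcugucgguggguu

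Between 56.5% and 62.5% of the spots of an array lay well above background, and 0 spots were saturated. A level is the log2 signal relative to the array's 75th percentile over probes, so 0 stands for that percentile. All 8 arrays shared 1 slide and 1 scan. The normal and untreated arrays filled row 1 of the slide and the nanoparticle arrays row 2, so row and nanoparticles cannot be told apart. The normal and control miRNA arrays lay in columns 1 and 2, the untreated and mimic arrays in columns 3 and 4, so column and group cannot be told apart except where mimic is set against untreated or control miRNA against normal. The Lepr probe used read 2.57 and 2.95 with the mimic, 2.94 and 2.68 with the control miRNA and 2.87 and 2.90 untreated, against 3.68 and 3.62 in normal kidney, a difference of -0.83 ± 0.13 (log2 ± standard error) for the mean of the db/db groups (adjusted p = 0.0208, limma). Whether that probe lies where the mutation alters the transcript was not tested. The mimic arrays stood apart from each other: they differed by more than 2-fold at 2474 genes (r = 0.976 over genes), against 168 to 692 genes (r = 0.992 to 0.997) between the arrays of the other groups. The numbers of genes called and the medians in comparisons that use the mimic arrays are therefore also given without one or the other. Whole kidney was measured, so more cycling cells and more RNA of these genes per cell cannot be told apart.

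The promoters of these genes carry the letters that cell cycle transcription factors are known to bind, in a different mix for mitosis and for S phase. RefSeq promoters (GRCm38.p6, 250 bases before to 50 after the start) were at hand for 32 of the 40 genes. The entries for Ccnd1, Ccne2, Mcm4, Ccna2, Aurkb, Foxm1, Kif20a and Tpx2 are missing. The window listed for E2f1 appears to hold coding sequence of the gene and not its promoter, and it is counted in the shares below. An E2F motif (TTCCCGC, its variant with the letters TTGGCGC, or the third variant searched, TTCGCGC, on both strands) stood in 9 of the 32 promoters, or 28.1%, against 8.21% of 27025 promoters in the RefSeq table. The CHR motif (TTTGAA, both strands) stood in 16, or 50.0%, against 18.1% of all promoters, and CCAAT (both strands) in 26, or 81.2%, against 37.9%. Among the 19 genes of mitosis, 14 promoters (73.7%) held CHR and 3 (15.8%) an E2F motif. Among the 13 genes of G1/S, replication and nucleotide supply, 2 (15.4%) held CHR and 6 (46.2%) an E2F motif. These shares were not tested, and a match describes the sequence and shows no binding. In 2 of the 32 promoters an E2F match overlapped a CCAAT match, and matches of the E2F strings can overlap each other, as they do in Mcm5 and Mcm6.

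**Figure D1:**
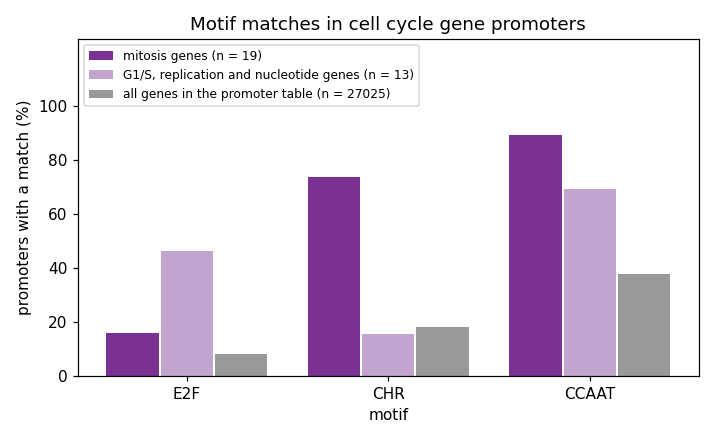
Share of 300-base promoters with at least 1 match (vertical axis, %) to the E2F, CHR and CCAAT motifs, for 19 mitosis genes, 13 genes of G1/S, replication and nucleotide supply, and all 27025 promoters of the RefSeq table. CHR matches stood in 73.7% of the mitosis promoters and 15.4% of the G1/S, replication and nucleotide promoters, against 18.1% of all promoters.

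Promoters of 5 genes follow, with matches in capitals. Top2a and Rrm1 are shown because they passed the test in more comparisons than any other member. Mcm5 and Mcm6 encode subunits of 1 helicase and both hold E2F matches, and Mcm5 was higher in db/db kidney while Mcm6 averaged below normal. Cdk1 is shown because its promoter holds all 3 motifs while its probes disagreed.
Top2a (chr11:99024140-99024439, minus strand): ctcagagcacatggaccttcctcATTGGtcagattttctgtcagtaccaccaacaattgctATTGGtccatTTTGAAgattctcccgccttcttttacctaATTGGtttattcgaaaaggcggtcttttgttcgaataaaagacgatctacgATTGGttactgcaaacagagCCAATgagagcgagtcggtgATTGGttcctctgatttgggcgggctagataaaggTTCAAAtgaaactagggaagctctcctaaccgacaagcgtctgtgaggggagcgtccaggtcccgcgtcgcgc
Rrm1 (chr7:102441445-102441744, plus strand): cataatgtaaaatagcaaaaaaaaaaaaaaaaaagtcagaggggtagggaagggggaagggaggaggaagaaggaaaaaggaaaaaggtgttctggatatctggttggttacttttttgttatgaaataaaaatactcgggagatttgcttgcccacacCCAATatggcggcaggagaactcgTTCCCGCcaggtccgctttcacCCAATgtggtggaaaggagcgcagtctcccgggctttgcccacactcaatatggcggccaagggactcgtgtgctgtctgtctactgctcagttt
Mcm5 (chr8:75109259-75109558, plus strand): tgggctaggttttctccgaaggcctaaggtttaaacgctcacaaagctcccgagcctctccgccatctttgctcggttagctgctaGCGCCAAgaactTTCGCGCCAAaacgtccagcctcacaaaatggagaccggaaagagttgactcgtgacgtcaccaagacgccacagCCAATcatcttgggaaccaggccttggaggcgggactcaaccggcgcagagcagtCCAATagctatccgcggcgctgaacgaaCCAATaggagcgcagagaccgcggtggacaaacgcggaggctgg
Mcm6 (chr1:128359656-128359955, minus strand): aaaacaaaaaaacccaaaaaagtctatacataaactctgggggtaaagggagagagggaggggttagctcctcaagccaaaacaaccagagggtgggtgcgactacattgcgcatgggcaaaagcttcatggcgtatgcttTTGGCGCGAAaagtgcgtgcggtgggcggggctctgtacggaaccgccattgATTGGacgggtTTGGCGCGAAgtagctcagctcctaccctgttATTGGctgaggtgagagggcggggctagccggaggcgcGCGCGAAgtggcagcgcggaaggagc
Cdk1 (chr10:69352863-69353162, minus strand): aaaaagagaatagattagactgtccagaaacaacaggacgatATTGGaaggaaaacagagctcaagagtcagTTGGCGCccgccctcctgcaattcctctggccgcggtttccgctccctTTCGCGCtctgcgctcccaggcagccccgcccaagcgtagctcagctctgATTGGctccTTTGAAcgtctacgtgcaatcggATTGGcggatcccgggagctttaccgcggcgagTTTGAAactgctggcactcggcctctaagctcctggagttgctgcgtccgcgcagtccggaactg

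Top2a holds 2 CHR and 6 CCAAT matches, Rrm1 1 E2F and 2 CCAAT matches, Mcm5 3 E2F and 3 CCAAT matches, Mcm6 5 E2F and 2 CCAAT matches, and Cdk1 2 E2F, 2 CHR and 3 CCAAT matches. No match to these letters stood in the promoter windows of 5 members, Ccne1, Birc5, E2f1, Nusap1 and Tyms. Only the first listed start of a gene was searched, so matches near another start would be missed. The E2f1 window appears to hold coding sequence, so its lack of a match does not describe the E2f1 promoter. Over all db/db mice Ccne1 and Birc5 passed the test and the other three did not.

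Untreated db/db mice, set against normal mice, show how these genes stand in the diabetic kidney when no particle was given. Most averaged higher in untreated db/db kidney, by a factor near 2. Differences here and below are log2 differences ± standard error, and a value in parentheses after one, where it is not a fold, is its adjusted p. Of the 36 measured, 29 were above and 7 below their normal level, with a median difference of 1.01, against a median of -0.01 over all genes, of which 49.3% were above. The genes with both untreated arrays above both normal arrays numbered 29 of 36, against 31.7% of all genes. Another 2, Mcm7 and Cdc6, had both below, against 31.6% of all genes, and 19 had a fitted difference of at least 2-fold, against 2.90% of all genes. The 19 include Tpx2, which its bound places at no less than 1.85-fold, and Aurkb, which was not well above background on 1 of the normal arrays. In limma with Benjamini-Hochberg adjustment over 22368 genes, 3 passed at an adjusted p under 0.05, all higher: Top2a, Rrm1 and Ccne1. The background share is 1.41% of all genes called higher. At an unadjusted p under 0.05, 23 were higher, against 11.7% of all genes, and 0 were lower. The count depended on the mimic arrays, whose spread enters the estimate that all groups share: without those arrays, 22 of 36 passed, all higher, with 6.83% of all genes called higher, and the 3 genes were among them. Without normal replicate 2, untreated replicate 1 or untreated replicate 2, 0 passed. Without normal replicate 1 or either control miRNA array, 1 passed, Top2a. With so few arrays the smallest p of an exact permutation test (2 against 2, two-sided) is 0.333, so each p rests on the spread shared over all genes and groups.

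**Figure D2:**
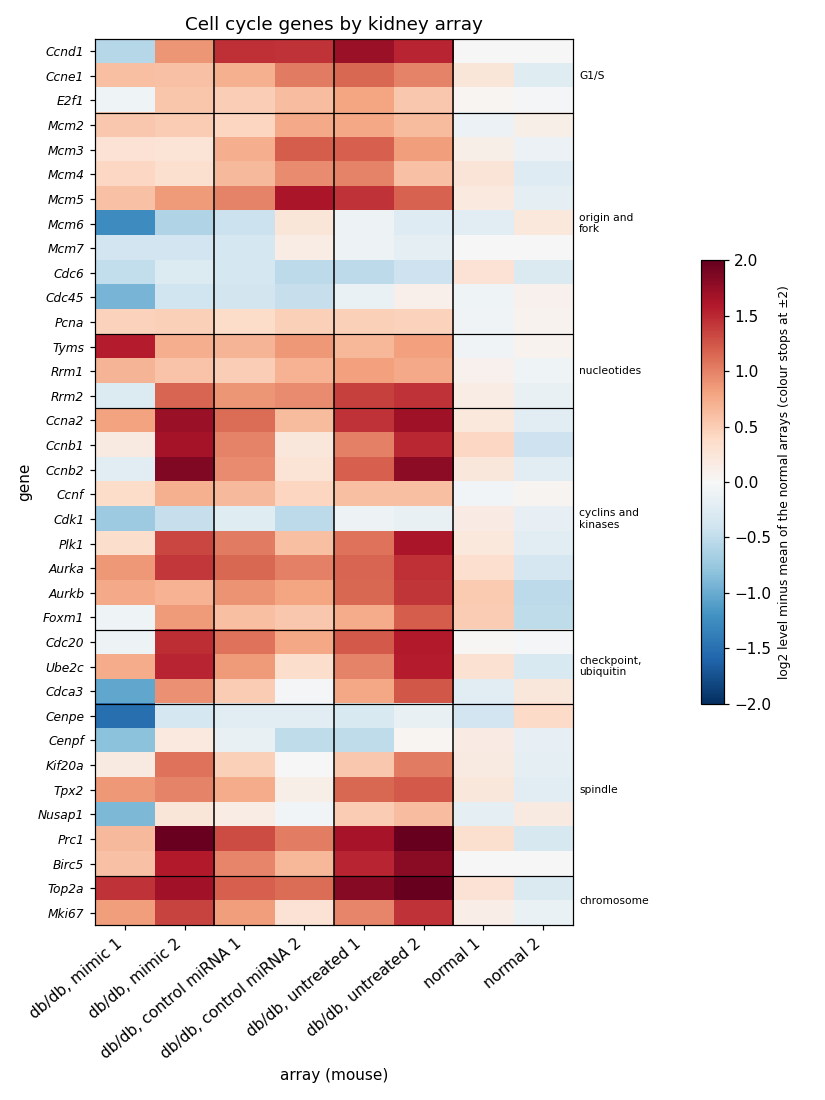
Log2 level of each of the 36 measured genes (rows, by role) on each array (columns, 1 mouse each) minus the mean of the normal arrays (red above, blue below). Most rows are red across the untreated and control miRNA columns, mimic 2 resembles them, and mimic 1 is paler or blue at many genes, among them Ccnd1, Mcm6, Cdca3, Cenpe and Nusap1.

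Set against normal kidney, the mean of the 3 db/db groups gave the clearest calls. Here 12 of 36 passed, all higher, with 4.94% of all genes called higher: Ccne1, Mcm2, Mcm3, Mcm5, Pcna, Rrm1, Ccna2, Ccnf, Aurka, Tpx2, Birc5 and Top2a. Of these, Tpx2 was not well above background on either normal array, so its call rests on normal values that are only bounds. It passed the filter only through the untreated and mimic groups, so its call is no independent support for a difference. The median difference was 0.80, or 0.78 without mimic replicate 1 and 0.68 without mimic replicate 2, and 18 genes had all 6 db/db arrays above both normal arrays, against 16.2% of all genes. None of the 36 had all 6 below, against 17.7% of all genes, and 29 of 36 were above normal on average, against 47.7%. Without mimic replicate 1, 22 passed (10.1% of all genes called higher), and the 12 were among them. Without mimic replicate 2, 20 passed, 19 higher and 1 lower (11.6% and 14.8% of all genes), again with the 12 among them. Without normal replicate 2, 0 passed, without normal replicate 1, 2 passed, and without a control miRNA or untreated array, 1 to 3 passed. All comparisons with normal kidney share the same normal mice.

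**Figure D3:**
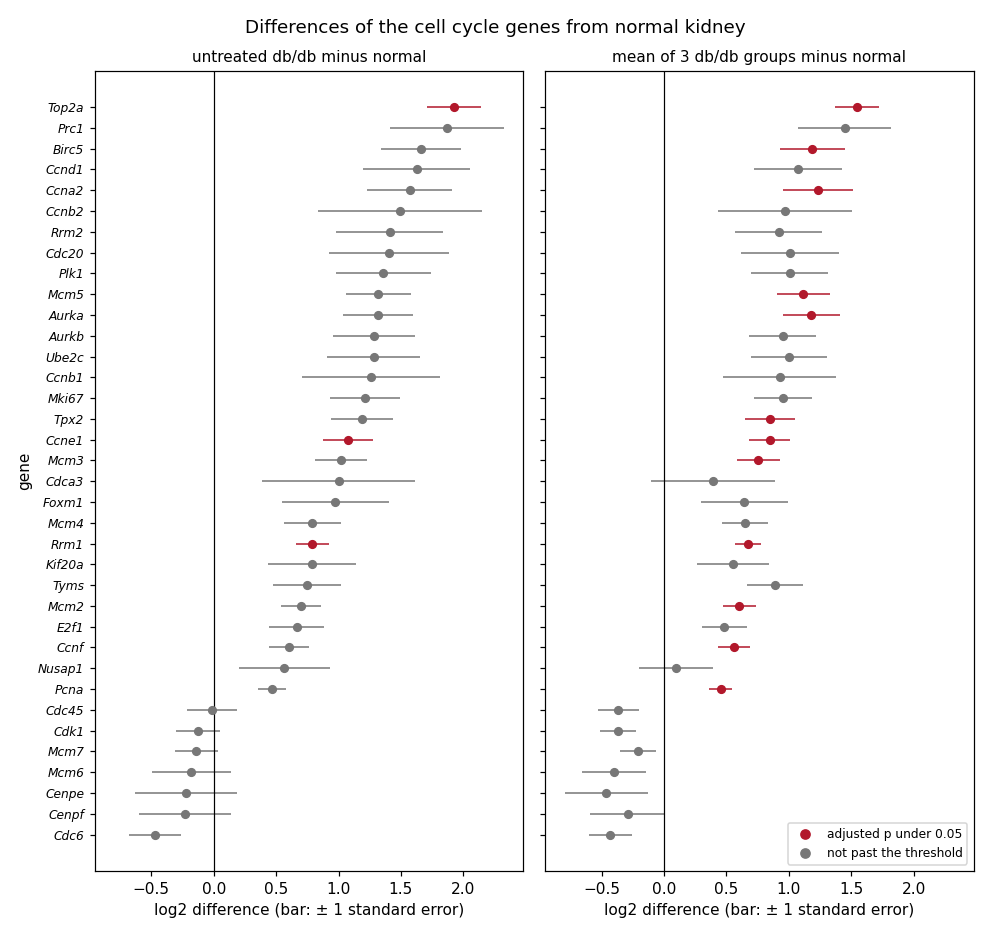
Log2 difference of each measured gene from normal kidney (horizontal axis; points, with bars of ± 1 standard error from limma), for untreated db/db kidney (left) and the mean of the 3 db/db groups (right), ordered by the left panel. Red marks an adjusted p under 0.05, which 3 genes reached on the left and 12 on the right, and 29 of 36 points lie above 0 in both panels.

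All 3 measured genes of the G1 to S step averaged above normal in untreated db/db kidney, against 49.3% of all genes. Of the 3, 1 passed, against 1.41% of all genes called higher. Ccne1, the E-type cyclin that starts S phase with CDK2, read -2.17 and -2.19 with the mimic, -2.06 and -1.73 with the control miRNA and -1.61 and -1.77 untreated, against -2.52 and -3.01 in normal kidney. All 6 db/db arrays lay above both normal arrays, with a difference of 1.08 ± 0.20 in untreated mice (2.11-fold, adjusted p = 0.0487) and 0.85 ± 0.16 over all db/db mice (0.0302). Scaling to the percentile over spots, an alternative chosen after the data were seen, left 2 members called in untreated mice instead of 3, without Ccne1. Ccnd1, the D-type cyclin that responds to growth signals, read 3.74 and 5.20 with the mimic, 5.77 and 5.76 with the control miRNA and 6.04 and 5.84 untreated, against 4.32 and 4.31 in normal kidney. The untreated and control miRNA arrays lay 3.09-fold and 2.73-fold above normal (adjusted p = 0.0926 and 0.135), while mimic replicate 1 lay below both normal arrays and mimic replicate 2 above both. E2f1, the transcription factor of the S phase programme, differed by 0.66 ± 0.22 in untreated mice (0.139), at -0.79 and -1.03 in untreated db/db kidney, against -1.53 and -1.62 in normal kidney.

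The subunits of the replicative helicase differed unequally. MCM2 to MCM7 form a ring of 6 subunits that is loaded at origins and unwinds DNA at the fork. Mcm2, Mcm3 and Mcm5 were higher over all db/db mice, Mcm4 averaged above normal without passing, and Mcm6 and Mcm7 lay near or below normal. Mcm5 read -0.76 and -0.48 with the mimic, -0.36 and 0.30 with the control miRNA and 0.11 and -0.16 untreated, against -1.15 and -1.53 in normal kidney. Every db/db array exceeded both normal arrays, by 1.32 ± 0.26 in untreated mice (0.0549) and 1.12 ± 0.21 over all db/db mice (2.17-fold, adjusted p = 0.0292). Mcm3 read 0.23 and 0.22 with the mimic, 0.68 and 1.15 with the control miRNA and 1.13 and 0.79 untreated, against 0.07 and -0.18 in normal kidney. The difference over all db/db mice was 0.76 ± 0.17 (0.0418), and the mimic arrays stood lowest among the db/db arrays, close above normal. Mcm2 read 0.23 and 0.21 with the mimic, 0.12 and 0.46 with the control miRNA and 0.47 and 0.32 untreated, against -0.41 and -0.19 in normal kidney, a difference of 0.60 ± 0.13 (0.0381) with no overlap. Mcm4 stood 0.79 ± 0.23 above normal in untreated mice (0.108) and 0.65 ± 0.19 over all db/db mice (0.0738), and did not pass. By contrast, Mcm6 read 1.90 and 2.57 with the mimic, 2.72 and 3.41 with the control miRNA and 3.07 and 2.90 untreated, against 2.95 and 3.37 in normal kidney. Its untreated and normal arrays overlapped (-0.18 ± 0.32, adjusted p = 0.765), and both mimic arrays lay below both normal arrays. Mcm7 read 1.62 and 1.63 with the mimic, 1.67 and 2.16 with the control miRNA and 1.90 and 1.84 untreated, against 2.01 and 2.02 in normal kidney. Its untreated arrays lay just below normal (-0.14 ± 0.17, 0.659). The unequal change of Mcm5 and Mcm6 was not tested as such.

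Of the other origin and fork genes, Pcna passed and the loading factors lay at or below normal. Pcna, the sliding clamp of DNA polymerases, read 3.31 and 3.33 with the mimic, 3.22 and 3.32 with the control miRNA and 3.33 and 3.31 untreated, against 2.78 and 2.92 in normal kidney. Its spread was small, and the difference of 0.45 ± 0.09 over all db/db mice, 1.37-fold, passed (adjusted p = 0.0333). Cdc6, which loads the MCM ring onto origins, read -2.33 and -2.22 in untreated db/db kidney, against -1.52 and -2.09 in normal kidney. It was the member with the lowest difference, -0.47 ± 0.21 (0.228), and did not pass. Cdc45, which joins the ring to form the active helicase, read -3.03 and -2.80 in untreated db/db kidney, against -2.98 and -2.82 in normal kidney, a difference of -0.02 ± 0.20 (0.972). In all, 5 of the 9 origin and fork genes were higher in untreated db/db kidney and 4 lower, with a median of 0.47. Of all genes, 49.3% were higher. There 0 of 9 passed (1.41% of all genes called higher), against 4 of 9 over all db/db mice (4.94% of all genes called higher).

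All 3 genes of deoxynucleotide supply averaged above normal in each db/db group, against 46.1% to 49.3% of all genes by group, and Rrm1 passed. Rrm1, the large subunit of ribonucleotide reductase, read 0.82 and 0.71 with the mimic, 0.63 and 0.84 with the control miRNA and 0.96 and 0.89 untreated, against 0.22 and 0.05 in normal kidney. No db/db array reached down to the normal arrays, and the gene passed in untreated mice (0.79 ± 0.13, 1.73-fold, adjusted p = 0.0390), in mimic mice (0.63 ± 0.13, 0.0414) and over all db/db mice (0.67 ± 0.11, 0.0200). Rrm2, the small subunit that is made in S phase, read -0.02 and 1.41 with the mimic, 1.13 and 1.19 with the control miRNA and 1.62 and 1.70 untreated, against 0.39 and 0.11 in normal kidney. The untreated arrays lay 2.66-fold above normal (0.117), but mimic replicate 1 lay below both normal arrays. Tyms, thymidylate synthase, read 3.53 and 2.69 with the mimic, 2.65 and 2.83 with the control miRNA and 2.63 and 2.79 untreated, against 1.89 and 2.04 in normal kidney. It was the only one of the 3 with mimic replicate 1 as its highest array. On the probe used its difference of 0.89 ± 0.22 over all db/db mice did not pass (0.0549).

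Mitotic cyclins and kinases mostly averaged above normal, with wide spread. Of 9 genes, 8 were above normal in untreated db/db kidney, against 49.3% of all genes, with a median of 1.28. There 0 passed (1.41% of all genes called higher), against 3 over all db/db mice (4.94% of all genes called higher). Ccna2, the A-type cyclin of S phase and G2, read -2.23 and -1.30 with the mimic, -1.90 and -2.40 with the control miRNA and -1.58 and -1.34 untreated, against -2.82 and -3.24 in normal kidney. All 6 db/db arrays lay above normal (1.24 ± 0.28, 2.36-fold, adjusted p = 0.0431). Aurka, the centrosome kinase, read -1.24 and -0.69 with the mimic, -0.95 and -1.09 with the control miRNA and -0.94 and -0.65 untreated, against -1.77 and -2.44 in normal kidney, and also passed over all db/db mice (1.18 ± 0.23, 0.0304). Ccnf, the cyclin F subunit of a ubiquitin ligase, read -1.14 and -0.79 with the mimic, -0.85 and -1.07 with the control miRNA and -0.90 and -0.90 untreated, against -1.56 and -1.45 in normal kidney on the probe used (0.56 ± 0.13, 0.0439). Ccnb1 and Ccnb2, the B-type cyclins that activate CDK1, differed by 1.26 ± 0.55 and 1.49 ± 0.66 in untreated mice (0.223 and 0.225). Ccnb2 on the mimic arrays read -1.74 and 0.32, one within the range of the normal arrays, at -1.29 and -1.76, and the other above the untreated arrays, at -0.32 and 0.26. Plk1, Aurkb and Foxm1, kinases of mitotic entry and chromosome segregation and the factor that drives G2 genes, differed by 1.36, 1.28 and 0.97 in untreated mice (adjusted p = 0.101, 0.0871 and 0.221). Aurkb lay above background on 7 of 8 arrays, and the exception was a normal array, at -5.04, so its difference is not exact.

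The genes of the mitotic checkpoint and its ubiquitin ligase that could be measured were all above normal in untreated db/db kidney, against 49.3% of all genes. In any comparison 0 of 3 passed. Of all genes, 1.41% were called higher in untreated mice and 4.94% over all db/db mice. Cdc20, which activates the anaphase-promoting complex, read -0.97 and 0.62 with the mimic, 0.22 and -0.09 with the control miRNA and 0.37 and 0.73 untreated, against -0.83 and -0.89 in normal kidney. The untreated arrays lay 2.65-fold above normal (0.145), and mimic replicate 1 lay below both normal arrays. Ube2c, the ubiquitin-conjugating enzyme of that complex, differed by 1.28 ± 0.37 in untreated mice (0.108). Cdca3, which helps degrade the mitotic inhibitor WEE1, read -2.45 and -0.49 with the mimic, -0.91 and -1.44 with the control miRNA and -0.64 and -0.17 untreated, against -1.63 and -1.19 in normal kidney. Its mimic arrays lay on either side of the normal arrays, and its difference in untreated mice had the standard error 0.61 (1.00, 0.362).

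Spindle and cytokinesis genes split. Birc5, which encodes survivin of the chromosomal passenger complex, read -0.19 and 0.80 with the mimic, 0.19 and -0.12 with the control miRNA and 0.74 and 1.02 untreated, against -0.78 and -0.79 in normal kidney. It was 3.16-fold above normal in untreated mice (1.66 ± 0.32, 0.0524) and passed over all db/db mice (1.19 ± 0.26, 0.0407). Prc1, which bundles the microtubules of the central spindle, read -2.19 and -0.85 with the mimic, -1.54 and -1.81 with the control miRNA and -1.19 and -0.75 untreated, against -2.51 and -3.16 in normal kidney. Its difference of 1.87 ± 0.46 in untreated mice was the second largest of all members and did not pass (0.0808). Tpx2, the activator of Aurora A on the spindle, lay above background on 5 of 8 arrays and on neither normal array. It was at least 1.85-fold higher in untreated mice (0.0587). Over all db/db mice it passed (0.0478), but no bound is given there, since a control miRNA array, at -4.57, was also not well above background. The probe was kept only through the untreated and mimic groups, so the filter itself favoured a higher reading in db/db kidney. On each dim array the bound takes the lowest signal well above background, or the probe's own signal where that is higher. The bright group is set against these. The measured means were -3.85 in db/db and -4.70 in normal kidney. Kif20a and Nusap1, a motor of cytokinesis and a microtubule stabiliser, differed by 0.79 ± 0.35 and 0.57 ± 0.36 (0.229 and 0.381). The kinetochore motor Cenpe read -1.87 and -0.71 with the mimic, -0.59 and -0.59 with the control miRNA and -0.67 and -0.50 untreated, against -0.74 and 0.02 in normal kidney, and the kinetochore protein gene Cenpf read -3.98 and -2.96 with the mimic, -3.31 and -3.68 with the control miRNA and -3.67 and -3.12 untreated, against -3.00 and -3.32 in normal kidney on the probe used. Neither was higher in untreated mice (-0.23 ± 0.41 and -0.23 ± 0.37, adjusted p = 0.771 and 0.737).

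Top2a had the largest difference of all members in untreated mice, in mimic mice and over all db/db mice, but not in control miRNA mice. Topoisomerase II alpha untangles sister chromosomes and is made mainly in cycling cells. Its probe (mm9, chr11:98854651-98854710, minus strand) read -1.86 and -1.63 with the mimic, -2.10 and -2.18 with the control miRNA and -1.49 and -1.28 untreated, against -3.01 and -3.60 in normal kidney. All 6 db/db arrays lay above both normal arrays. The gene was 3.79-fold higher in untreated mice (1.92 ± 0.22, adjusted p = 0.0172), 2.95-fold higher in mimic mice (1.56 ± 0.22, 0.0140) and 2.92-fold higher over all db/db mice (1.55 ± 0.18, 0.00918). In control miRNA mice it did not pass (1.16 ± 0.22, 0.0622). Mki67, which encodes the Ki-67 protein of dividing cells, read -0.99 and -0.47 with the mimic, -0.99 and -1.53 with the control miRNA and -0.85 and -0.37 untreated, against -1.68 and -1.96 in normal kidney. It differed by 1.21 ± 0.28 in untreated mice (0.0732) and 0.96 ± 0.23 over all db/db mice (0.0506), and did not pass.

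A second probe was above background for 12 of the 36 genes, and it sometimes gave another answer. For Top2a the second probe, above background on 0 of 2 normal arrays, was at least 2.83-fold higher in untreated db/db kidney (adjusted p = 0.00641 over 33639 probes). It was kept only through the db/db groups, so the filter favoured that direction and its p is no independent support. All 4 Mcm3 probes were higher in untreated mice, by 0.75 to 1.10. Over all db/db mice only the Mcm3 probe used passed (the others: adjusted p = 0.0509, 0.0738 and 0.161, limma over probes). On the dimmest Mcm3 probe both mimic arrays, at -3.12 and -3.35, lay below both normal arrays, at -3.04 and -3.05. The second probes of Ccna2 and Birc5 did not pass over all db/db mice either (0.110 and 0.0785), while that of Top2a did. The Cdk1 probes disagreed. CDK1 is the kinase that triggers mitosis. The brighter probe, which the rule uses (mm9, chr10:68797987-68798046), read -3.05 and -2.79 with the mimic, -2.58 and -2.86 with the control miRNA and -2.44 and -2.47 untreated, against -2.17 and -2.49 in normal kidney, a difference of -0.12 ± 0.17 (0.702). The dimmer probe (mm9, chr10:68805423-68807832), whose 60 bases span 2410 bases of the genome, read -4.86 and -3.77 with the mimic, -4.12 and -4.38 with the control miRNA and -2.97 and -3.49 untreated, against -6.54 and -6.40 in normal kidney. It lay above background on neither normal array, and was at least 2.26-fold higher in untreated mice (0.0165 over probes). This Cdk1 probe too was kept only through db/db groups, so the filter favoured that direction. For Cenpf the second probe was well above background on 1 of 2 normal and 1 of 2 mimic arrays, so its fitted difference of 1.69 (0.261), where the first probe gave -0.23, is not exact. It read -4.61 and -2.35 with the mimic, -3.06 and -4.38 with the control miRNA and -3.14 and -2.79 untreated, against -3.96 and -5.35 in normal kidney. For Ccnf the 2 dimmer probes differed by -0.72 and -0.78, against 0.60 on the probe used, so the probes disagree in sign. Over all db/db mice, 1 of the dimmer Ccnf probes passed in the other direction (lower, adjusted p = 0.0321 over probes). The signs also differed for Mcm6 (-0.18 and 0.39), Prc1 (1.87 and -0.10) and Tyms (0.75, 0.81 and -0.16). Over all db/db mice the Tyms probe with 0.81 passed, at a difference of 0.93 (adjusted p = 0.0330, limma over probes). The Tyms probe used and the third did not (0.0535 and 0.767). No annotation of exons was used here to say which transcripts each probe reads.

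**Figure D4:**
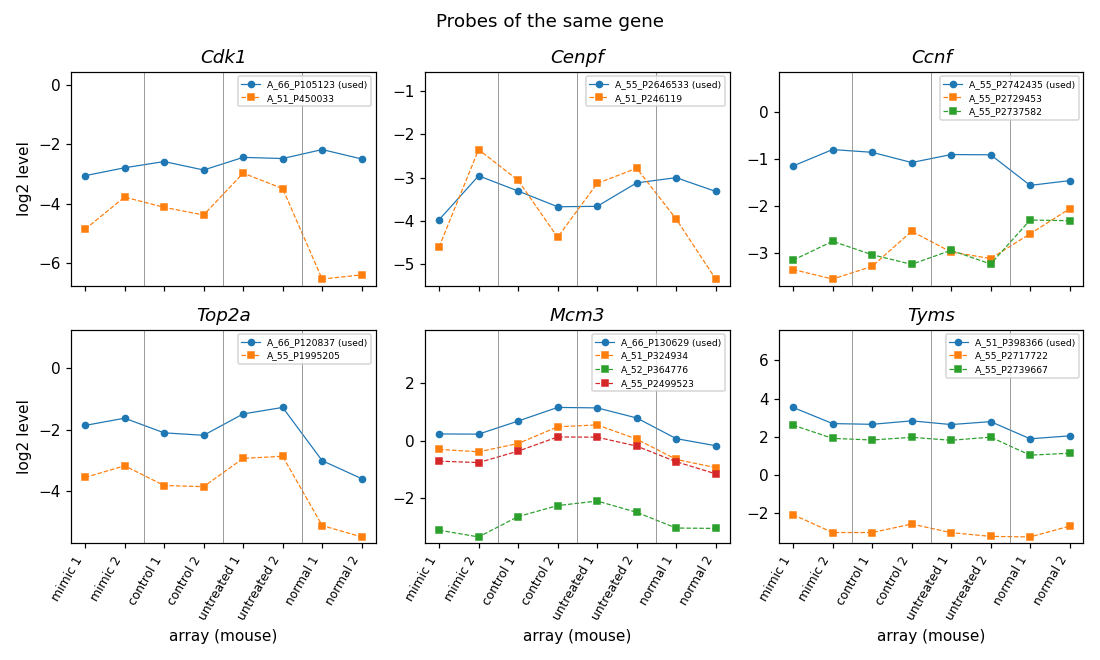
Log2 level on each array (horizontal axis, 1 mouse each) of all probes that passed for 6 genes, with the probe used as circles and the others as squares. The Top2a probes run parallel, and so do the Mcm3 probes, except that the dimmest reads the mimic arrays below the normal arrays. The dimmer Cdk1 probe is at its lowest on the normal arrays while the brighter one is not, and 2 Ccnf probes run against the third. Lines join the arrays of a probe only to guide the eye.

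Control miRNA mice stood above normal at most of the genes, by less at the median than untreated mice did. Of 36 genes, 29 were above normal, against 48.5% of all genes, with a median of 0.60, and 0 passed, where 0.715% of all genes were called higher. At an unadjusted p under 0.05, 17 were higher, against 9.73% of all genes, 24 did not overlap and were higher, against 29.0%, and 5 were at least 2-fold higher, against 2.03%. The largest differences were those of Ccnd1 (1.45 ± 0.43), Mcm5 (1.31 ± 0.26), Prc1 (1.16 ± 0.46) and Top2a (1.16 ± 0.22). Without the mimic arrays, 11 passed (4.90% of all genes called higher). Mimic mice had a median of 0.56, or 0.79 without mimic replicate 1 and 0.32 without mimic replicate 2, with 27 genes above normal, against 46.1% of all genes, and 2 passed, Top2a and Rrm1, where 3.41% of all genes were called higher. At an unadjusted p under 0.05, 15 were higher, against 13.0% of all genes, and 3 were lower, against 17.0%, while 20 did not overlap and were higher, against 24.9%. The 3 lower genes were Mcm6, Cdc45 and Cdk1, at -0.93, -0.67 and -0.59. For Cdk1 this is the brighter probe. The dimmer one went the other way, at -4.86 and -3.77 with the mimic, against -6.54 and -6.40 in normal kidney, where it was not above background.

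The mimic mice differed from each other at many of these genes. On mimic replicate 1 the median gene lay 0.32 above the normal mean and 20 of 36 lay above both normal arrays, while on mimic replicate 2 the median was 0.79 and 30 lay above. The medians were 0.70 and 0.57 with the control miRNA and 0.98 and 1.11 untreated, against 0.15 and -0.15 for the normal arrays themselves. Only 7 of 36 genes were higher on mimic replicate 1 than on mimic replicate 2, and 10 differed by more than 2-fold, against 0 to 2 in the other groups. With mimic replicate 1 left out, 10 passed against normal kidney, all higher (3.74% of all genes called higher), with Top2a among them and Rrm1 not. With mimic replicate 2 left out, 10 passed, 4 higher and 6 lower (11.2% and 16.9% of all genes), with both among them. Without normal replicate 2, 0 passed, and without any 1 of the other arrays outside the mimic group, 1 passed, Top2a. A group of 1 mouse is then taken to vary like the others.

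**Figure D5:**
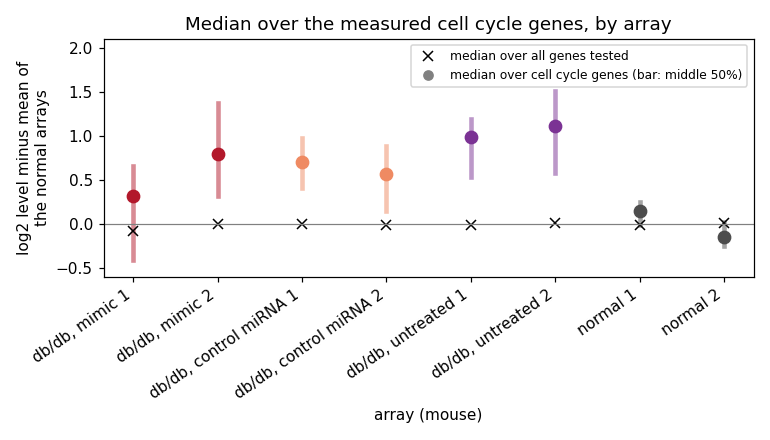
Median over the 36 measured genes of the log2 level minus the mean of the normal arrays, on each array (points; bars give the middle 50% of genes), with the median over all genes as crosses. The untreated arrays are highest, at 0.98 and 1.11, mimic 1 is at 0.32 and mimic 2 at 0.79, and the medians over all genes stay near 0.

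The comparison of mimic with control miRNA mice asks what the miR-181b-5p mimic adds to the particles. In limma 0 of 36 members passed, and 0 of 22368 genes did (0.00%), while 2036 genes, or 9.10%, had an unadjusted p under 0.05. Here 17 of 36 were higher and 19 lower, where 54.3% of all genes were lower, with a median of -0.04, against -0.03 over all genes. At an unadjusted p under 0.05, 3 were lower, against 5.32% of all genes: Ccnd1 (-1.29 ± 0.43), Mcm3 (-0.69 ± 0.21) and Mcm6 (-0.83 ± 0.32). For 9 members both mimic arrays lay below both control miRNA arrays, against 20.3% of all genes. The adjusted p of the 3 was 0.458, 0.412 and 0.510. Ccnd1 read 3.74 and 5.20 with the mimic, against 5.77 and 5.76 with the control miRNA, so both mimic arrays were lower and 1 far more than the other. For Mcm3 both mimic arrays lay below both control miRNA arrays and were close together, at 0.23 and 0.22, against 0.68 and 1.15. The median was 0.18 without mimic replicate 1 and -0.36 without mimic replicate 2, so its sign turned with the mouse. Without mimic replicate 2, 6 members passed, 1 higher and 5 lower (5.84% and 7.74% of all genes), and without mimic replicate 1, 0 passed.

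Against untreated db/db kidney, most members averaged lower in both particle groups, and in limma 0 of 36 passed in either, as did 0.00% of all genes. An unadjusted p under 0.05 was found at 3102 genes (13.9%) with the mimic and at 728 genes (3.25%) with the control miRNA. With the mimic, 33 of 36 were lower, with a median of -0.45 against -0.04 over all genes, of which 55.9% were lower. At an unadjusted p under 0.05, 5 were lower, against 7.46% of all genes, and 17 had both mimic arrays below both untreated arrays, against 25.8%. The 5 were Ccnd1 (-1.47 ± 0.43), Mcm3 (-0.73 ± 0.21), Cdc45 (-0.65 ± 0.20), Cdk1 (-0.46 ± 0.17) and Nusap1 (-0.89 ± 0.36). Their adjusted p ran from 0.247 to 0.355. Without mimic replicate 1 the median was -0.11, and without mimic replicate 2 it was -0.67, with 11 members called, 1 higher and 10 lower (7.71% and 11.0% of all genes). With the control miRNA, 31 of 36 were lower, with a median of -0.33 against -0.02 over all genes, of which 55.0% were lower. Both control miRNA arrays lay below both untreated arrays at 22 genes, against 22.3% of all genes, and 3 genes had an unadjusted p under 0.05, against 1.28%: Top2a (-0.76 ± 0.22), Birc5 (-0.84 ± 0.32) and Tpx2 (-0.76 ± 0.25). The adjusted p of each was 1.00. The 4 replication genes Mcm2, Mcm3, Mcm4 and Mcm5 differed by -0.11, -0.05, 0.01 and -0.01 in the same comparison, while the 9 mitotic cyclins and kinases had a median of -0.44. Of the other origin and fork genes, Cdc45 averaged -3.32 with the control miRNA against -2.92 untreated. In the same order Pcna averaged 3.27 against 3.32, Mcm6 3.07 against 2.98, Mcm7 1.91 against 1.87 and Cdc6 -2.25 against -2.28. For nucleotide supply, Rrm2 averaged 1.16 against 1.66, Rrm1 0.73 against 0.92 and Tyms 2.74 against 2.71. A split between replication and mitosis genes was not tested. Nanoparticle mice and untreated mice lay in different rows of the slide, and these cannot be told apart.

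Other genes of the cycle, listed apart from the 40, had smaller median differences. Of 27 further replication genes measured, 25 were above normal in untreated db/db kidney, against 49.3% of all genes, with a median of 0.37. There 0 passed, against 1.41% of all genes called higher. The largest difference was that of Uhrf1, which helps copy DNA methylation (1.33 ± 0.28, 0.0590), and it passed over all db/db mice with Rfc4, a subunit of the clamp loader (1.18 ± 0.23 and 0.50 ± 0.11). In mimic mice 12 of these 27 were above normal, near the 46.1% of all genes, with a median of -0.02. Of 33 further mitosis genes, 29 were above normal in untreated mice, against 49.3% of all genes, with a median of 0.53. Of these 33, 2 passed, against 1.41% of all genes called higher: Spc24 of the kinetochore (1.30 ± 0.19, 0.0304) and Ncapg of condensin (1.93 ± 0.36, 0.0487). Pbk, a mitotic kinase that was not well above background on either normal array, was at least 4.77-fold higher and did not pass (0.144). That bound equals the fitted fold, since its normal signals still exceeded the lowest signal counted as well above background on those arrays. Spc24 read 0.96 and 1.37 with the mimic, 0.81 and 1.13 with the control miRNA and 1.00 and 1.14 untreated, against -0.34 and -0.12 in normal kidney, with the groups apart. Over all db/db mice 7 of the 33 passed, all higher, against 4.94% of all genes called higher, among them Spc25 (1.63 ± 0.22, 0.0129).

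Of 7 CDK inhibitor genes, 4 averaged above normal in untreated mice, against 49.3% of all genes, with a median of 0.26. There 1 passed, against 1.41% of all genes called higher. Cdkn1c, which encodes the CDK inhibitor p57 and marks podocytes, read 5.67 and 4.66 with the mimic, 4.45 and 4.45 with the control miRNA and 4.41 and 4.61 untreated, against 2.74 and 2.79 in normal kidney (1.75 ± 0.31 in untreated mice, adjusted p = 0.0437). Cdkn1b, Cdkn2a and Cdkn2b averaged below normal, at -0.29 ± 0.12, -0.25 ± 0.40 and -0.80 ± 0.86 (0.210, 0.741 and 0.606). Cdkn1a, which encodes p21, read 2.69 and 0.15 with the mimic, -0.39 and -0.65 with the control miRNA and -0.24 and -0.53 untreated, against -0.81 and -1.85 in normal kidney, with its highest level on mimic replicate 1. Wee1, the kinase that holds CDK1 inactive, read 0.89 and 1.57 with the mimic, 1.14 and 1.08 with the control miRNA and 1.38 and 1.32 untreated, against -0.65 and -0.35 in normal kidney (1.85 ± 0.23, 3.60-fold, 0.0218). Rb1, the retinoblastoma protein that restrains E2F, was 1.49-fold higher (0.57 ± 0.11, 0.0475). With Rb1 and Wee1, 2 of 20 genes of the G1 cyclins, their kinases and the E2F and RB family passed in untreated mice. The share of all genes called higher is 1.41%. Of the 20, 14 were above normal, against 49.3% of all genes, with a median of 0.17 and Cdk6 lowest at -0.71 ± 0.20 (0.104). Over all db/db mice E2f2, an activating E2F, fell by 0.67 on the log2 scale (0.0413). Of 13 genes of the anaphase-promoting complex, 8 were above normal in untreated mice, against 49.3% of all genes, the median was 0.13 and 0 passed.

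Marker lists of other cell types differed between the groups in both directions. The summed linear level of the 9 macrophage markers measured, in units of the array's 75th percentile, was 24.7 and 13.3 with the mimic, 15.0 and 13.3 with the control miRNA and 12.4 and 12.9 untreated, against 30.1 and 27.1 in normal kidney. In untreated mice 0 of 9 macrophage genes and 0 of 9 T and NK cell genes were above normal, and Csf1r, the macrophage growth factor receptor, was lower by a log2 difference of -1.22 ± 0.18 (0.0295). Markers of red cells and their precursors differed between arrays. Slc4a1 among them is also a marker of the collecting duct, and which cells gave this RNA was not tested. For the 5 red cell markers that were measured, the summed level was 261.2 and 10.9 with the mimic, 189.9 and 89.0 with the control miRNA and 133.3 and 198.2 untreated, against 14.6 and 20.6 in normal kidney. In untreated mice 4 of 5 were above normal and 0 passed, with Hbb-b1, a haemoglobin chain, at 4.07 ± 1.74 (0.214) and Tfrc lowest at -0.18. Within the untreated pair, the array with the higher red cell sum had the higher cell cycle median (1.11 against 0.98). The same held within the control miRNA pair (0.70 against 0.57). In the mimic pair the array with the higher red cell sum had the lower cell cycle median (0.32 against 0.79), as in the normal pair (-0.15 against 0.15). The podocyte markers, which include Cdkn1c, summed to 91.7 and 59.5 with the mimic, 55.7 and 50.2 with the control miRNA and 56.4 and 56.1 untreated, against 23.7 and 24.8 in normal kidney, and 6 of 6 were above normal in untreated mice, with 4 past the test. The tubular injury markers summed to 1269 and 386.2 with the mimic, 350.4 and 298.6 with the control miRNA and 375.5 and 318.7 untreated, against 199.7 and 141.2 in normal kidney. The median difference of these 9 genes was only 0.04 in untreated mice, from -0.55 for Krt18 to 1.47 for Spp1. It was 0.19 in control miRNA mice and 1.18 in mimic mice. The urothelium markers summed to 5.98 and 1.63 with the mimic, 9.32 and 2.15 with the control miRNA and 1.51 and 1.58 untreated, against 19.0 and 5.34 in normal kidney. In untreated mice 0 of 7 were above normal, the median was -2.90 and 0 passed. The adipocyte markers summed to 18.6 and 14.6 with the mimic, 16.5 and 16.3 with the control miRNA and 15.9 and 13.7 untreated, against 99.8 and 14.3 in normal kidney, so normal replicate 1 stood apart. In untreated mice 1 of 6 was above normal, the median was -2.48 and 0 passed. For 7 B and plasma cell markers the median was -0.42 with 0 past the test, and for 8 endothelial markers it was 0.31 with 3 past the test. The share to set beside the podocyte and endothelial counts is 1.41% of all genes called higher in untreated mice. Beside the counts of markers above normal in untreated mice it is 49.3% of all genes. The proximal tubule markers, which define the bulk of kidney tissue, summed to 1373 and 2705 with the mimic and 2764 and 2330 with the control miRNA. They summed to 2497 and 2620 untreated, against 2986 and 3469 in normal kidney. By this sum every db/db array lay below both normal arrays, with mimic replicate 1 lowest. A sum follows the most abundant markers. The median difference of the 10 genes was -0.09 in untreated, -0.16 in control miRNA and -0.55 in mimic mice. In untreated mice they ran from -1.08 for Kap to 0.83 for Slc5a12. The part of these cell types in the cell cycle values was not tested.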

How the data were processed

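Kidney RNA was hybridised to 8 Agilent arrays. Per the file headers, the authors' Feature Extraction software (12.0.3.1) gave for each spot a background-corrected intensity (the processed signal) and the raw intensities of spot and background. The authors also deposited a table of linear ratios, each probe's scaled signal over its median across the 8 arrays, as its comparison with the scanner files showed: column medians were 0.977 and 1.03 (mimic), 0.995 and 0.971 (control miRNA), 0.979 and 0.992 (untreated) and 1.05 and 1.08 (normal).

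Spots of a probe were averaged, control and outlier spots were left out, and log2 levels were taken relative to each array's 75th percentile over probes. A probe was kept where at least 1 group had it well above background on each of its arrays (33639 probes, 22368 genes), and the brightest probe of a gene was used. Gene names came from RefSeq by accession for 33709 probes and from symbols or synonyms for 9854 and 310, while 12662 kept the array's name. Groups were compared with limma 3.58.1 in R 4.3.3, all 8 arrays in 1 fit with 1 mean per group, and p-values were adjusted by Benjamini-Hochberg over all genes, with a threshold of 0.05. Every adjusted p in the text comes from these fits. Standard errors are limma's, n is 2 mice a group (6 for all db/db), and the number of arrays limits the precision. The fit was tested on simulated data. The genes and the lists were chosen with earlier results of these data known. All 36 measured genes are named, and genes of other lists where they passed or had the largest difference. The alternatives were normexp background correction (offset 50), quantile normalization, the authors' table, other filters, the mean of a gene's probes, array weights, the replicate number or array column as a block, the compared arrays alone and each array left out. Fits without the mimic arrays and with the percentile over spots were added after seeing the data.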

Additional observations from a re-analysis of the deposited data

How the results depend on the processing

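Calls changed more often than signs, but several alternatives could not change a sign. Array weights, equal within each group, and the replicate block leave every difference as it was. So does the removal of arrays outside a comparison, and the authors' table holds nearly the same levels. Over the named genes and all alternatives, 1050 values kept their direction and their side of the threshold, 132 gained a call, 129 lost one and 17 changed sign. Below, the number of genes called of 36 is followed in parentheses by the number called over all genes. For untreated db/db kidney against normal, the fit reported gave 3 (749). Normexp gave 10 (2040), quantile normalization 9 (961) and only probes above background on all arrays 7 (947). Array weights gave 16 (2300), only the compared arrays 19 (2253) and the fit without the mimic arrays 22 (3261). With no filter on dim probes it was 1 (272), and with the replicate block 1 (429). Over all db/db mice, 12 (2489) became 2 (1187) with no filter, 5 (1716) with array weights and 5 (2081) with the replicate block. For control miRNA mice, 0 (385) became 3 (985) with normexp, 1 (491) with quantile normalization and 1 (351) with the mean of a gene's probes. It became 1 (852) with only the compared arrays, 2 (1242) with array weights and 11 (2456) without the mimic arrays. For mimic mice, 2 (1849) became 4 (2262) with normexp, 5 (1684) with quantile normalization and 4 (1721) with the stricter filter. It became 1 (1034) with no filter, 1 (1426) with the replicate block, 0 (387) with array weights and 0 (15) with only the compared arrays. Leaving out 1 array gave 0 to 22 calls in untreated mice, 0 to 22 over all db/db mice, 0 to 11 in control miRNA mice, 0 to 10 in mimic mice, 0 to 11 for mimic against untreated and 0 to 6 for mimic against control miRNA. Apart from the smaller fits, the cause was not tested.

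The median difference was 0.65 for untreated mice and 0.35 for control miRNA mice with normexp, where it was 1.01 and 0.60 in the fit reported. Leaving out 1 array gave medians of 0.83 to 1.23 for untreated mice.

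Signs turned as follows. With the mean of a gene's probes, untreated mice gave -0.30 for Ccnf, 1.56 for Cdk1, 0.73 for Cenpf and 0.10 for Mcm6, and all db/db mice gave -0.34 for Ccnf, 1.08 for Cdk1 and 0.49 for Cenpf, since these genes have probes that disagree. With quantile normalization, untreated mice gave 0.19 for Cdc45 and 0.0342 for Cdk1. Leaving out 1 array gave -0.13 to 0.10 for Cdc45 in untreated mice, -0.28 to 0.0340 for Cdk1 in untreated mice, -0.60 to 0.15 for Cenpe in untreated mice, -0.50 to 0.0390 for Cenpf in untreated mice, -0.39 to 0.0292 for Mcm6 in untreated mice and -0.10 to 0.29 for Nusap1 in all db/db mice. Over all genes, 749 calls in untreated mice became 2040 with normexp, 2300 with array weights, 2253 with only the compared arrays, 272 with no filter and 429 with the replicate block, and 2489 calls over all db/db mice became 4041 with normexp and 1187 with no filter. The replicate numbers only name the mice: same-numbered deviations correlated at -0.02 to 0.16 over 6 pairs of groups. With the array column as a block, 0 genes of 36 were called for control miRNA against normal and for mimic against untreated. Genes near background, such as Tpx2 and the second Cdk1 probe, allow only a lower bound.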
